A study of Mus musculus with 50 samples.

Results

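The interferon regulatory factor (IRF) and signal transducer and activator of transcription (STAT) genes considered here were Irf1, Irf4, Irf5, Irf7, Irf8, Irf9, Stat2 and Stat6, together with Socs1, a feedback inhibitor of the same pathways. These 9 genes were listed by name and make up 9 of the 21954 genes in the tables. All 9 were present in the tables, all 9 passed the filter on low counts in every macrophage comparison, and between 6 and 9 passed it in each comparison of digits. Each was followed through M0, M1 and M2 macrophages and through digits at every time point after amputation.

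The macrophages were cultured from bone marrow of female C57BL/6 mice aged 6 to 8 weeks. M1 macrophages had received IFN-γ at 20 ng/ml and LPS at 100 ng/ml for 24 hours, M2 macrophages IL-4 at 20 ng/ml for 24 hours, and M0 macrophages, labelled as baseline, basal medium alone. Each state had 3 libraries, and the sources used here do not say that these came from separate animals, so p-values between states measure the spread between these libraries. The digits were the wound bed of the terminal phalanx (P3) of hindlimb digit 3 of male C57Bl/6 mice aged 9 to 10 weeks, a mixture of cell types. The 29 non-regenerative (NR) digits had 60% to 80% of the phalanx removed by their labels, and 17 of them were labelled above the 67% that defines this outcome in the study. Hour samples were taken at 0, 3, 6, 12 and 24, and day samples at 3, 7, 14 and 21, in triplicate except for 5 digits on day 7. The 12 intermediate (INT) digits had 41% to 55% removed and came in triplicate from 0 hours, 24 hours, day 14 and day 21. Regenerative digits were not analysed here. An INT and an NR digit at 14 days carry the same animal mark, date and side in their labels. Such matches also occur between NR digits at 0 and 12 hours and between INT digits at 0 hours and NR digits at 12 hours. They occur between NR digits at 3 and 7 days as well. The tests treated all digits as independent.

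Type I interferon signals through the receptor chains Ifnar1 and Ifnar2 and the kinases Jak1 and Tyk2 to a complex that holds Stat2 and Irf9 and binds interferon-stimulated response elements (ISRE). Interferon gamma signals through Jak1 and Jak2 to gamma-activated sites (GAS), and Irf1 is a classical target of this arm. Interleukin 4 signals to Stat6, and in macrophages Irf4 is linked to the alternative, IL-4 driven state and Irf5 to the inflammatory state. Irf7 amplifies the production of type I interferon, Irf8 is a lineage factor of monocytes, macrophages and dendritic cells, and Socs1 blocks the Janus kinases.

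Libraries of macrophages held 15683424 to 27904773 expected counts and those of digits 1468749 to 13011782, so the low levels in digits rest on few counts. The macrophage markers (5 of 5 genes above 0) summed to 3330 to 4753 normalized TPM over the 9 macrophage libraries and to 14.8 to 154 in the digits, whereas 4 keratinocyte markers summed to at least 21050 in every digit and at most 1.67 in macrophages, sums that come from tables normalized separately. A list of 4 fibroblast and bone genes (Col1a1, Col1a2, Pdgfra, Bglap) summed to 296 to 355 in M1, 1013 to 1115 in M2 and 536 to 800 in M0, and the part of such cells in the values below was not tested. Of the digits, replicate 2 at 14 days and replicate 2 at 7 days (both NR) had median Spearman correlations of 0.634 and 0.687 with the other digits, and replicate 3 at 3 hours (NR) had the fewest counts. In bulk samples, fewer cells of a type and less RNA per cell cannot be told apart.

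Promoters (RefSeq, GRCm38, found for 9 of 9 genes) were searched, and windows are shown for the genes in which the letters of GAS or ISRE elements occur. The promoters of Irf4, Irf5, Irf7, Irf9 and Stat6 held none of the patterns searched. Capitals mark each match, and the flanks are 20 bases on each side. Irf1 and Irf8 held the GAS letters, TTC and GAA spaced by 3 bases, in the 250 bases before a start, as did 7.02% of 32851 promoters. Socs1 and Stat2 held the ISRE core, GAAA and again GAAA spaced by 2 bases, on either strand, as did 2.977% of promoters, with 2 overlapping matches in Socs1 and, in Stat2, a match on the other strand. TTC and GAA spaced by 4 bases, the wider spacing known for Stat6, occurred in Stat2 alone of the 9 and in 5.854% of promoters.
Irf1, chr11:53769904-53769952, + strand, GAS: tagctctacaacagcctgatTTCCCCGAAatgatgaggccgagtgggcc
Irf8, chr8:120736167-120736233, + strand, 2 GAS: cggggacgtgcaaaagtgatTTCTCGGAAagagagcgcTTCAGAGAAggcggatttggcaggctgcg
Socs1, chr16:10785584-10785639, - strand, ISRE core: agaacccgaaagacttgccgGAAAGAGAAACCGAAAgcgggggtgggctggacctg
Stat2, chr10:128270256-128270317, + strand, ISRE core and the wider spacing: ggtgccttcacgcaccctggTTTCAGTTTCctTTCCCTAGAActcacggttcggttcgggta
The matches stood 90 bases before the start of Irf1, 171 and 153 before that of Irf8, 83 and 77 before that of Socs1 and 222 (ISRE core) and 210 (wider spacing) before that of Stat2. Such matches describe letters and not bound sites, and binding was not measured.

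The loci, in GRCm38, differ in how cleanly reads can be given to them. Irf4 (chr13:30749226-30766976, + strand), Stat2 (chr10:128270559-128292849, + strand) and Socs1 (chr16:10782240-10785536, - strand) overlap no other gene. Exons of Irf1 (chr11:53770014-53778374, + strand), Irf5 (chr6:29526625-29541871, + strand), Irf7 (chr7:141262706-141266481, - strand) and Stat6 (chr10:127642986-127660957, + strand) overlap those of Gm17334, Tnpo3, Phrf1 and Nab2 on the other strand. Exons of Irf9 (chr14:55603571-55610030, + strand) overlap those of Rnf31 on the same strand, and Irf8 (chr8:120736358-120756694, + strand) overlaps Gm20388 on the same strand with no exon sequence in common. Whether counting used strand is not given in the sources used here, so levels of the overlapping genes carry this uncertainty.

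In macrophages, the comparison of M1 and M2 with M0 asks how polarization moved these regulators. Irf1, Irf5, Irf7, Stat2 and Socs1 rose in both states and more in M1, Irf9 rose in M1, and Irf4 rose in M2 and fell in M1. By edgeR's quasi-likelihood test, with a call where the Benjamini-Hochberg adjusted p was under 0.05 and the change exceeded 2-fold, 7 of 9 genes were called in M1 against M0 (6 higher, 1 lower), beside 46.1% of 12939 genes tested (20.1% higher, 26% lower). In M2 against M0, 6 of 9 were called, all higher, beside 22.3% of 12976 genes (11% higher). Directly between M1 and M2, 7 of 9 were called (6 higher and 1 lower in M1), beside 48% of 12934 genes (20.1% higher, 27.9% lower). With library totals alone 4 were called, where the median log2 fold change of all genes, M1 minus M2, was -0.696. The share of all genes called with that scaling is not given here. The median log2 fold change of the 9 was 2.73 in M1 and 1.48 in M2, against -0.09 and -0.00 over all genes. Levels are given in normalized TPM, a scale per transcript length and depth that the authors also equalized between libraries, in the order of replicates 1, 2 and 3.

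Irf1, the interferon gamma target, stood at 960, 1063 and 1017 in M1, at 323, 257 and 249 in M2 and at 95.5, 101 and 99.8 in M0. The 3 states did not overlap, and replicate 1 was the highest in M2. The log2 fold change was 3.30 (SE 0.06, adjusted p = 1.3e-13, edgeR) in M1 and 1.44 (SE 0.09, adjusted p = 6.07e-08) in M2, and M1 exceeded M2 by 1.77 (SE 0.08).

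Irf7, which amplifies type I interferon, reached the highest level of the 9 genes in M1 and in M2. It stood at 4202, 4109 and 4156 in M1, at 701, 519 and 529 in M2 and at 49.3, 94.4 and 74.5 in M0. The M0 libraries spread about their mean of 72.7 by an SD of 22.6 (n = 3) and still lay far below those of M2. The log2 fold change was 5.85 (SE 0.19, adjusted p = 2.53e-11, edgeR) in M1 and 2.97 (SE 0.20, adjusted p = 1.5e-07) in M2. The promoter of Irf7 held none of the 3 patterns in the window searched.

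Stat2 and Irf9 encode partners in the type I interferon complex, and they moved unequally. Stat2 stood at 945, 921 and 898 in M1, at 212, 170 and 178 in M2 and at 54.3, 71.8 and 66.5 in M0. Irf9 stood at 135, 135 and 134 in M1, at 53.3, 51.0 and 49.5 in M2 and at 38.8, 45.7 and 45.3 in M0. Both were highest in M1 without overlap, and for Irf9 the M2 libraries lay just above those of M0. In M1, Stat2 rose by 3.85 (SE 0.10) and Irf9 by 1.61 (SE 0.06) on the log2 scale, with adjusted p of 2.23e-12 and 1.63e-10 by edgeR. With library totals alone the Irf9 value was 0.83, under the 2-fold limit. In M2, Stat2 rose by 1.48 (SE 0.10, adjusted p = 2.63e-07), and Irf9 differed by 0.17 (SE 0.07, adjusted p = 0.0374), under the 2-fold limit.

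Irf5, the factor linked to inflammatory macrophages, stood at 643, 651 and 640 in M1, at 309, 278 and 277 in M2 and at 107, 90.5 and 94.8 in M0. The states did not overlap. Its log2 fold change was 2.73 (SE 0.06, adjusted p = 4.33e-13, edgeR) in M1 and 1.49 (SE 0.07, adjusted p = 7.66e-09) in M2, and M1 exceeded M2 by 1.14 (SE 0.06), a difference that was 0.53, under the 2-fold limit, with library totals alone.

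Irf4, linked to the IL-4 driven state, was the member that moved in opposite directions. It stood at 0.742, 1.27 and 1.19 in M1, at 17.3, 20.1 and 17.8 in M2 and at 5.56, 5.10 and 5.28 in M0. The levels therefore ran from M2 through M0 to M1 without overlap. Irf4 rose in M2 by 1.73 (SE 0.07, adjusted p = 5.08e-09, edgeR) and fell by 2.32 (SE 0.15, adjusted p = 1.68e-08) in M1 on the log2 scale. Between the states the log2 difference, M1 minus M2, was -4.15 (SE 0.13, adjusted p = 5.72e-13), the largest in size of the 9 genes.

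Stat6, the transducer of IL-4, changed little by comparison. It stood at 157 to 161 in M1, at 86.9 to 89.3 in M2 and at 99.7 to 109 in M0. The log2 fold change was 0.61 (SE 0.04, adjusted p = 3.6e-08, edgeR) in M1 and -0.25 (SE 0.04, adjusted p = 3.85e-04) in M2, both under 2-fold. The direction in M1 rested on the scaling between libraries: with library totals alone the value was -0.16 (adjusted p = 0.00267).

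Irf8, the lineage factor, stood at 157, 165 and 164 in M1, at 101, 90.1 and 90.4 in M2 and at 148, 155 and 164 in M0. M1 and M0 overlapped, and the M2 libraries lay below both. Its log2 fold change was 0.08 (SE 0.05, 95% CI -0.03 to 0.19, adjusted p = 0.137, edgeR) in M1 and -0.78 (SE 0.06, adjusted p = 3.99e-07) in M2. With library totals alone it was -0.69 in M1. That scaling shifted all genes by a median of -0.773 in M1 against M0, -0.616 in M1 against M2 and -0.0608 in M2 against M0 (log2), and changes are therefore given relative to the bulk of genes.

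Socs1, the inhibitor of the Janus kinases, had the largest fold change of the 9 genes in both states. It stood at 140, 150 and 150 in M1, at 60.0, 49.4 and 45.3 in M2 and at 1.71, 2.19 and 1.78 in M0. The M0 level was the lowest of the 9 genes in that state, and the states did not overlap. The log2 fold change was 6.30 (SE 0.09, adjusted p = 3.05e-14, edgeR) in M1 and 4.71 (SE 0.15, adjusted p = 6.67e-10) in M2, and M1 exceeded M2 by 1.49 (SE 0.08), a difference that was 0.87, under the 2-fold limit, with library totals alone.

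**Figure D1:**
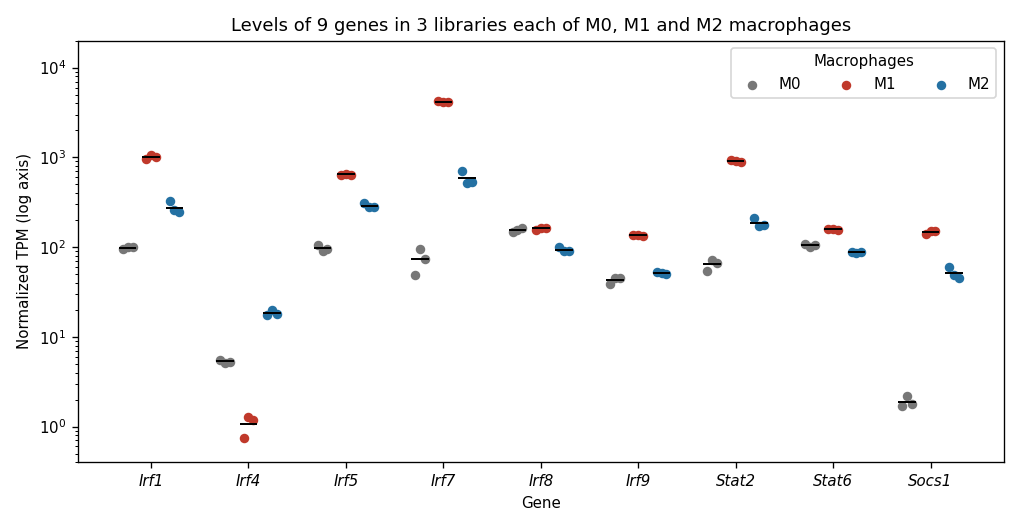
Normalized TPM (log axis) of the 9 genes in M0, M1 and M2 macrophages, with a point for each of 3 libraries a state and a line at the mean. Irf4 is highest in M2 at 17.3 to 20.1 and lowest in M1, Irf8 overlaps between M0 and M1, and Socs1 is under 2.2 in M0.

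Ranked per length by mean normalized TPM, M0 held Irf8 (156 ± 7.78, SD, n = 3), Stat6 (105 ± 4.84), Irf1 (98.8 ± 2.91) and Irf5 (97.3 ± 8.35) at the top, and Irf1 and Irf5 did not differ beyond their spread. In M1 the order was Irf7 (4156 ± 46.8), Irf1 (1013 ± 51.6), Stat2 (921 ± 23.6) and Irf5 (645 ± 5.92), with Irf8 (162 ± 4.54) and Stat6 (159 ± 2.03) within each other's spread. In M2 it was Irf7 (583 ± 102), Irf5 (288 ± 18.01), Irf1 (276 ± 40.5) and Stat2 (187 ± 22.1), where Irf5 and Irf1 overlapped. Irf9 and Socs1 did not differ beyond their spread in M2, at 51.3 ± 1.92 and 51.6 ± 7.57.

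**Figure D2:**
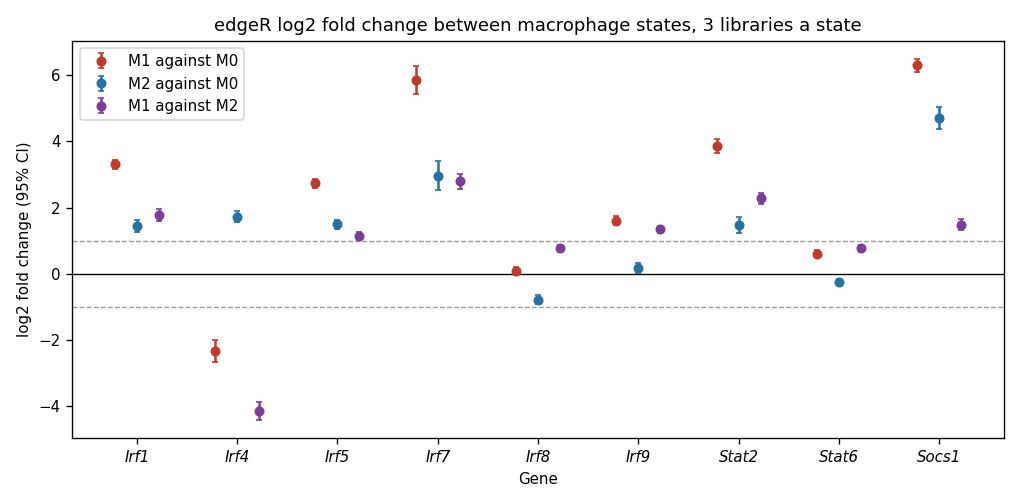
Log2 fold change (edgeR, points) with 95% confidence intervals (bars) for M1 against M0, M2 against M0 and M1 against M2, 3 libraries a state, with dashed lines at 2-fold. Socs1 at 6.30 and Irf7 at 5.85 lead in M1, and Irf4 is below 0 in M1 and above 0 in M2.

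Among 39 other genes of the pathway, 26 rose and 3 fell in M1 of 35 tested, beside 20.1% higher and 26% lower over all genes, and 16 rose and 3 fell in M2 of 34 tested, beside 11% higher of 22.3% called. Their median log2 fold changes were 2.39 and 0.67. With library totals alone the counts were 20 and 4 in M1 and 16 and 3 in M2. Under that scaling the median log2 fold change over all genes was -0.859 in M1 and -0.0643 in M2, and shares of all genes called are not given here. All 8 listed interferon targets (Isg15, Ifit1, Ifit3, Mx1, Oasl2, Cxcl9, Cxcl10, Gbp2) rose in M1 and in M2 against M0, and all 8 were higher in M1 than in M2, of which 7 kept the call with library totals alone. Isg15, a ubiquitin-like protein, averaged 5628 in M1, 947 in M2 and 57.5 in M0. Of 4 other STAT genes tested, Stat3 and Stat4 rose in M1, while Stat4 fell in M2.

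Of the 5 other feedback inhibitors, 4 rose in M1 and 3 in M2, and they were not the same set. Socs3, which inhibits signals of the IL-6 family, rose by 5.96 (SE 0.07, adjusted p = 1e-14, edgeR) in M1, and its log2 fold change in M2 was 0.28 (SE 0.08), under 2-fold. Socs2 rose by 2.89 (SE 0.09) in M2 and was not called in M1 at -0.26 (SE 0.13, adjusted p = 0.089). Cish and Usp18 rose in both states. Among 7 receptors, 5 rose and 1 fell in M1, against 1 and 1 in M2. Il4ra, the receptor chain for IL-4, rose by 2.73 (SE 0.06) in M1 and was -0.89 (SE 0.05) in M2, under 2-fold, while Ifngr1 fell in both. Of 4 listed IL-4 targets, Arg1, Chil3 and Retnla rose in M2, while Mrc1 was -0.53 (SE 0.06, adjusted p = 1.7e-05, edgeR), under 2-fold. In M1, Arg1 rose, Chil3 and Mrc1 fell, and Retnla did not pass the filter.

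The digits ask whether the same regulators moved after amputation. Levels in digits are given as counts relative to the TMM-scaled library size (CPM), because the ratio of normalized TPM to CPM varied between digits by over 2-fold for Irf1, Irf5, Irf7, Irf8, Irf9 and Stat6, as described for Irf5 below. A ranking between genes needs a scale per length, and by the median normalized TPM over 41 digits Stat6 led at 53.5 (38.4 to 93.0), followed by Irf9 at 13.4 (5.19 to 30.7), Irf5 at 11.8 (3.15 to 91.7), Irf1 at 7.78, Stat2 at 7.06, Irf7 at 6.77, Irf8 and Socs1 at 2.38 each and Irf4 at 0.292. The ranges of neighbours in this order overlapped. The place of Irf5 depended on the period of the label date described below, with a median of 38.6 in later digits, above that of Irf9 at 13.96, and of 7.92 in earlier digits, below those of Irf1 at 8.71 and Irf7 at 8.31 (normalized TPM). Irf4 had 3 or fewer counts in 14 of 41 digits, Socs1 in 7 and Irf8 in 6. When the 13 groups were ordered by mean CPM, 11 or 12 of the 12 neighbouring pairs overlapped for each gene.

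**Figure D3:**
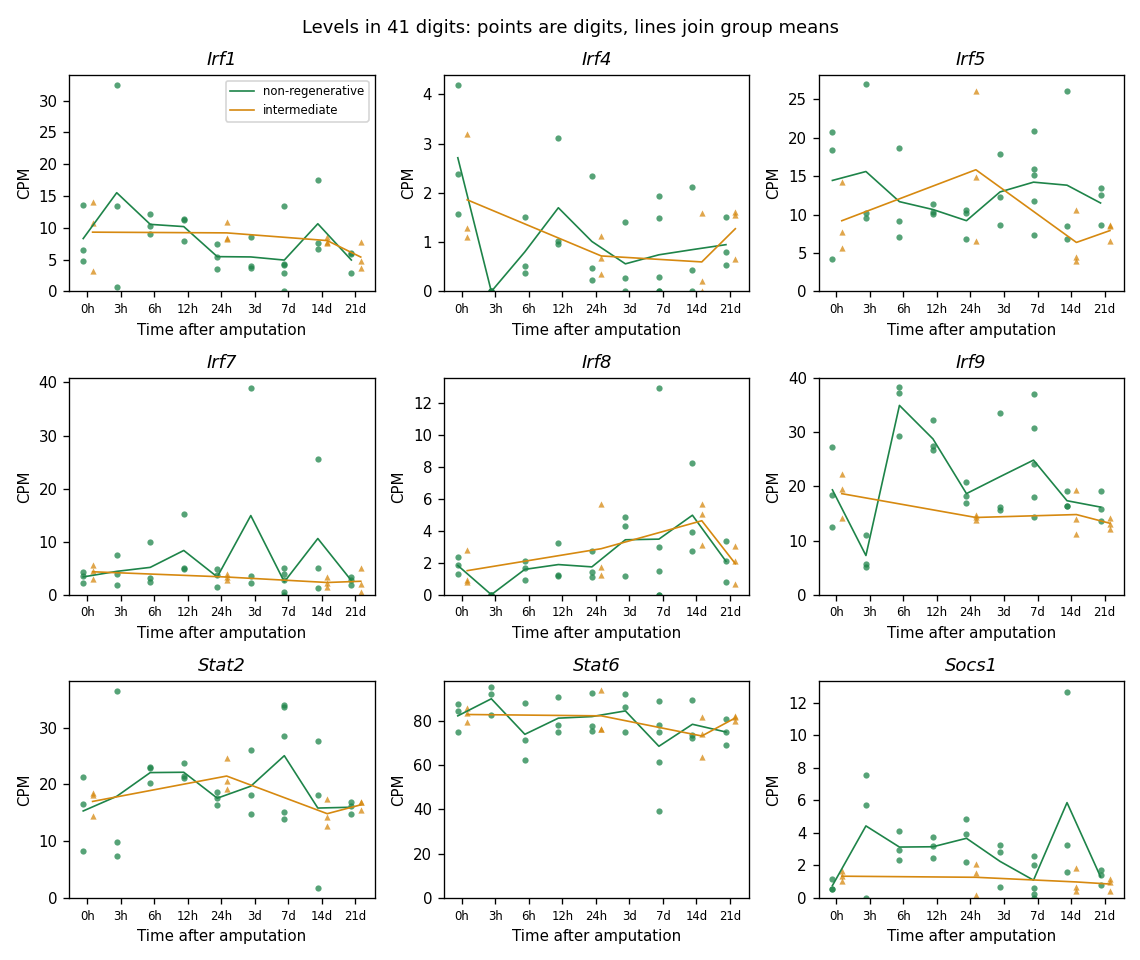
CPM of each gene in each of 41 digits (points) by time after amputation, with lines joining group means of NR (green, circles) and INT (orange, triangles) digits. Irf9 is lowest at 3 hours and highest at 6 hours in NR digits, and single digits carry the peaks of Irf7 at 3 and 14 days and of Socs1 at 14 days.

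Between each NR time point and 0 hours, 1 gene was called at 24 hours (Socs1) and 0 at every other time. The share of all tested genes called was 0% at 3 hours, 4.85% at 6, 11.4% at 12 and 10.7% at 24 hours, and 0.723%, 0.0537%, 0% and 0.452% on days 3, 7, 14 and 21. The genes of the list with an unadjusted p under 0.05 numbered 1, 3, 2 and 1 at 3, 6, 12 and 24 hours, beside 10.8%, 25.6%, 35.1% and 32.9% of all genes, and 0, 0, 1 and 1 on days 3, 7, 14 and 21, beside 11.1%, 4.34%, 7.7% and 7.2% (edgeR). DESeq2 called 1 gene at 12 and 1 at 24 hours, Socs1 each time, and 0 elsewhere. The shares of all genes that DESeq2 called are not given here. The NR comparisons share the 0 hour digits.

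Socs1, the feedback inhibitor, had 3.92, 2.21 and 4.85 CPM at 24 hours and 0.546, 1.18 and 0.541 at 0 hours, from 33, 19 and 27 against 3, 12 and 5 counts. The digits of the 2 times did not overlap. The log2 fold change was 2.22 (SE 0.62, adjusted p = 0.0421, edgeR). The call was lost without any 1 of the 6 digits, with adjusted p from 0.0561 to 0.157, while the value stayed between 1.98 and 2.71. It was also lost when all digits were fitted together, a fit that called 2.21% of 14996 genes at 24 hours, both without (2.23, adjusted p = 0.353) and with the date period in that fit (2.44, adjusted p = 0.311). Neutrophil markers (6 genes) summed to 1201 to 1452 normalized TPM at 24 hours and 22.9 to 32.9 at 0 hours, and macrophage markers to 25.5 to 80.2 and 28.1 to 57.3, and their part in the difference was not tested. Of the 6 neutrophil genes, S100a8 and S100a9 were highest at 24 hours, with medians of 390 and 757 normalized TPM.

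At the times around 24 hours Socs1 stood at similar levels. It had 4.14, 2.30 and 2.93 CPM at 6 hours and 3.74, 3.20 and 2.48 at 12 hours, above all 3 digits at 0 hours. The log2 differences from 0 hours were 1.99 (SE 0.58, adjusted p = 0.0808) and 2.02 (SE 0.61, adjusted p = 0.0519) by edgeR, so neither was called. At 3 hours it had 0, 5.73 and 7.54 CPM and did not pass the filter. At 14 days the digits had 1.62, 12.7 and 3.26 CPM, where the highest was replicate 2, which stands apart, and the difference of 2.92 (adjusted p = 0.518) became 1.64 without it. In INT digits at 24 hours Socs1 had 1.54, 0.176 and 2.08 CPM, below the 3 NR digits of that time. That difference, INT minus NR, was -1.44 (SE 0.75, adjusted p = 0.496), and the difference between the 24 hour responses was -2.25 (SE 1.04, adjusted p = 0.609, edgeR interaction term).

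Irf9, the DNA-binding partner of Stat2, was the single gene of the list called in the test of any difference among the 9 NR time points (F = 4.12, adjusted p = 0.0374, edgeR), beside 7.62% of 14434 genes. Its digits had 12.6, 18.3 and 27.2 CPM at 0 hours, 10.9, 5.73 and 5.03 at 3 hours, 29.3, 37.2 and 38.4 at 6 hours and 32.2, 27.4 and 26.7 at 12 hours. On this scale the 3 hour digits lay below, and the 6 hour digits above, all digits at 0 hours. On the scale of normalized TPM both overlapped with the 0 hour digits (10.8 to 17.5), with a highest 3 hour digit of 10.9 and a lowest 6 hour digit of 17.2. At 24 hours it had 18.2, 17 and 20.8 CPM, and at 3 days 33.5, 16.2 and 15.6. From 7 days on the digits ranged from 13.7 to 37.1 CPM. No single step from 0 hours was called, at -1.38 (SE 0.48, adjusted p = 0.401) for 3 hours and 0.84 (SE 0.29, adjusted p = 0.121) for 6 hours.

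The Irf9 call was lost on leaving out 15 of the 29 digits in turn. Among these were each digit of 6, 12 and 24 hours and 21 days, and replicates 2 and 3 at 3 hours. Those 3 hour digits held 15 and 8 Irf9 counts. Leaving them out gave the highest adjusted p, 0.13 and 0.108 (edgeR), of a range from 0.00899 over the 29. The call was kept with the date period as a term. The part of Rnf31, which shares exon sequence on the same strand, was not tested here. In INT digits Irf9 had 14.2 to 22.3 CPM at 0 hours and 13.9 to 14.6 at 24 hours.

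**Figure D4:**
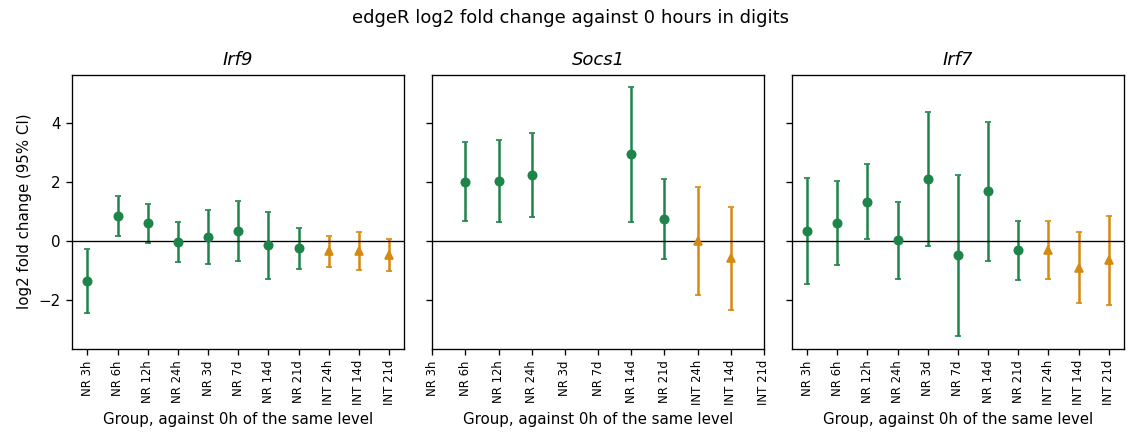
Log2 fold change against 0 hours (edgeR, points) with 95% confidence intervals (bars) for Irf9, Socs1 and Irf7 in NR (circles) and INT (triangles) digits, genes chosen after their values were seen. Gaps are times at which Socs1 did not pass the filter on low counts, and the Socs1 value at 24 hours, 2.22, was the only call against 0 hours.

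Irf7 was high in single digits and was called in no comparison of digits. At 3 days it had 38.9, 2.24 and 3.60 CPM, and without the highest digit the log2 difference from 0 hours went from 2.08 (SE 0.99, adjusted p = 0.495, edgeR) to -0.23. At 14 days it had 1.25, 25.5 and 4.97 CPM, and without replicate 2 the difference of 1.67 became -0.10. At 12 hours it had 15.2, 4.87 and 4.96 CPM against 3.46, 2.26 and 4.33 at 0 hours, with a difference of 1.32 (SE 0.55, adjusted p = 0.13) that became 0.57 without replicate 1 at 12 hours. These digits do not overlap in CPM and do in normalized TPM. Irf7 is a target of the interferon complex as well as an inducer of interferon, and of the 8 listed interferon targets Isg15 and Oasl2 were called at 12 hours, among 6 that passed the filter, beside 11.4% of all genes.

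Irf8 and Irf4 were low. Irf8 had 0 counts in all 3 digits at 3 hours, where 0 allows up to 0.548, 1.15 and 1.88 CPM, and 1.27, 2.35 and 1.84 CPM at 0 hours. The limits of 2 of the 3 digits lay below all digits at 0 hours, and that of the third, the shallowest library, did not. Irf8 did not pass the filter there, and without the filter its adjusted p was 0.42 by edgeR and, by DESeq2, 0.218. At 14 days Irf8 had 2.74, 8.20 and 3.94 CPM in NR and 3.13, 5.69 and 5.03 in INT digits, above all digits at 0 hours of the same level of amputation. These differences were 1.43 (SE 0.74, adjusted p = 0.636) and 1.66 (SE 0.64, adjusted p = 0.305) by edgeR, and without NR replicate 2, which stands apart, the first became 0.84. In the same digits, macrophage markers summed to 80.8 to 153 and 48.0 to 80.5 normalized TPM at 14 days and to 28.1 to 57.3 and 32.4 to 58.2 at 0 hours, and their part was not tested. On the scale of normalized TPM, Irf8 overlapped between the times at both levels of amputation. NR digits had 2.66, 7.94 and 3.97 on day 14 and 4.01, 1.44 and 1.26 at 0 hours, and INT digits 2.93 ± 0.465 (SD, n = 3) and 3.69 ± 3.34. Irf4 had 4.19, 1.57 and 2.38 CPM at 0 hours, 0 counts in the 3 digits at 3 hours and 0 to 3.12 CPM at all later NR times.

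Stat6, Stat2, Irf1 and Irf5 were called in none of the digit comparisons with all libraries. Stat6 was steady, at 39.4 to 95.1 CPM over 41 digits, and its log2 difference from 0 hours ran from -0.29 at 7 days to 0.13 at 3 hours. The lowest Stat6 digit was replicate 2 at 7 days, which stands apart. Stat2 had 8.19, 21.3 and 16.5 CPM at 0 hours and 20.3 to 23.7 at 6 and 12 hours, with differences of 0.52 (SE 0.33) and 0.54 (SE 0.33). Irf1, an early target of interferon gamma, had 13.5, 32.5 and 0.628 CPM at 3 hours against 13.7, 4.81 and 6.50 at 0 hours. Its 3 hour digits ran from below to above the whole range at 0 hours, and the difference was 0.94 (SE 0.91, adjusted p = 0.729, edgeR).

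In INT digits, 0 genes of the list were called at 24 hours, 14 days or 21 days against 0 hours, beside 0.0152%, 1.68% and 1.39% of all genes, with 0, 1 and 0 at an unadjusted p under 0.05 (edgeR, beside 15.4%, 13.4% and 16.6%) and 0 by DESeq2. Between INT and NR digits, 0 were called at 0 hours, 24 hours, 14 days and 21 days, beside 0%, 0%, 0% and 0.648% of genes, with 0, 0, 1 and 0 at an unadjusted p under 0.05 (edgeR, beside 491 of 13500, 1472 of 13024, 270 of 13421 and 1927 of 13736 genes) and 0 by DESeq2. INT and NR digits at 21 days also differ throughout in the period of the label date described below. At 3 days against 24 hours in NR digits, 0 were called beside 2.76% of genes, with 0 at an unadjusted p under 0.05 (edgeR, beside 18.7%) and 0 by DESeq2. The difference between the INT and NR responses was called for 0 genes at 24 hours, 14 days and 21 days, beside 0%, 0% and 0% of genes, and Socs1 alone had an unadjusted p under 0.05, at 24 hours and at 14 days, beside 8.09%, 3.59% and 5.92% of genes at the 3 times. At 14 days the Socs1 value of -3.50 (adjusted p = 0.856, edgeR) became -2.20, with an unadjusted p of 0.0737, without NR replicate 2, which stands apart.

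Among the 39 other pathway genes, 4 rose at 6 hours, 9 at 12, 6 at 24 hours and 2 at 3 days in NR digits, of 29 to 31 tested, and 0 fell, beside 4.85%, 11.4%, 10.7% and 0.723% of all genes called in either direction. Neutrophil markers summed to 192 to 279, 444 to 1207, 1201 to 1452 and 695 to 1144 normalized TPM at these times, against 22.9 to 32.9 at 0 hours, and their part was not tested. Il4ra rose by 2.60 (SE 0.15) at 6 hours, 2.70 (SE 0.22) at 12 and 3.33 (SE 0.17) at 24 hours, with adjusted p of 5.96e-04, 5.51e-04 and 5.5e-05 by edgeR, and Il13ra1, which pairs with it, rose by 1.81 to 1.93. Stat3 rose by 1.34 to 1.43 and Socs3 by 2.42 to 2.58 at the same 3 times. The RNA of Stat6, the transducer downstream of the receptor chain Il4ra, had a difference of 0.00 (SE 0.15) at 24 hours, and activation of Stat6 was not measured. Against 24 hours, Stat3, Il4ra and Socs3 fell and Arg1 rose at 3 days.

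Irf5 differed by the period of the date in the digit labels. The labels fall into an earlier period (24 digits) and a later period (17 digits), which cross most groups. NR digits at 3 and 12 hours and INT digits at 21 days are all earlier, and NR digits at 21 days are all later. Between INT and NR digits at 21 days, period and level of amputation cannot be told apart. Of the NR digits at 0 hours, 1 is earlier and 2 are later. Irf5 had a median of 14.2 CPM (7.37 to 26.1) in the later and 8.63 (3.97 to 27.0) in the earlier digits, so that the periods overlap. With group as a further term, later minus earlier was 0.94 (SE 0.24, adjusted p = 0.0101, edgeR), beside 8.23% of 14996 genes, and the other 8 genes of the list had adjusted p of 0.11 or more. On the scale of normalized TPM the gap was wider, with a median of 38.6 (7.05 to 91.7) in the later and 7.92 (3.15 to 26.2) in the earlier digits. The ratio of TPM to CPM for Irf5, taken on library totals, had a median of 2.75 in the later digits, 0.878 in the earlier digits and 0.975 in macrophages. Irf5 transcripts in the tables range from 350 to 2241 bases, and a change in the transcripts to which counts were given would move this ratio. The overlapping gene Tnpo3 differed by -0.30 (SE 0.17, adjusted p = 0.307) between the periods.

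Within the later period, 2 digits, replicate 3 at 14 days and replicate 2 at 21 days (both NR), had Irf5 at 7.05 and 7.79 normalized TPM, at the level of the earlier period. At 0 hours the NR digit of the earlier period had 4.19 CPM and the 2 of the later period 20.7 and 18.4. Without the earlier digit, Irf5 at 24 hours differed from 0 hours by -1.08 (adjusted p = 0.0302, edgeR), while with all 3 it differed by -0.65 (adjusted p = 0.41). What the periods stand for is not given beyond the dates.

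**Figure D5:**
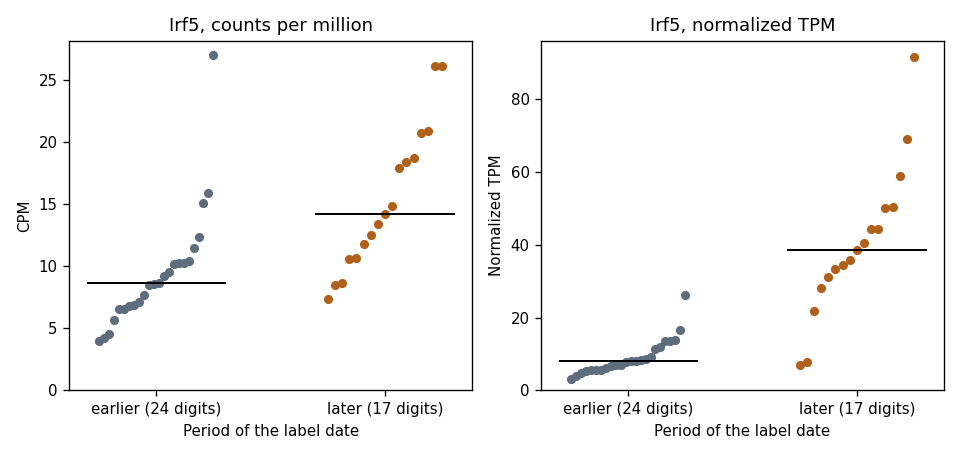
Irf5 in each digit (points, sorted within a period) as CPM on the left and normalized TPM on the right, by period of the label date, with a line at the median. The medians are 8.63 and 14.2 CPM, and 7.92 and 38.6 normalized TPM, for the earlier and later period.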

How the data were processed

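Polyadenylated RNA was sequenced in 9 macrophage libraries and 41 digits. Single-end reads had been aligned by Bowtie to Ensembl genes of GRCm38, and the authors deposited unnormalized expected counts from RSEM 1.2.3. A second set of tables, deposited as normalized TPM, holds a signal, TPM that the authors scaled by median-by-ratio normalization, separately for macrophages and digits. Levels of the 9 genes were therefore not compared across these, and marker sums of both were given side by side without a test. After rounding of the expected counts, edgeR 4.0.16 (R 4.3.3, filterByExpr, TMM, quasi-likelihood test) was run on the libraries of each pair of groups. Calls needed an adjusted p (Benjamini-Hochberg, all tested genes) under 0.05, and mean normalized counts, with 1 added, that differed by more than 2-fold. EBSeq, the test of the study, was not used here. An F test over the 9 NR time points, interaction terms for INT against NR and a test of the date period were fitted in the same way, the last chosen after the data were seen, as was the use of CPM for levels in digits. Alternatives were DESeq2 1.42.0, other scaling, no filter on low counts, joint fits, a replicate block and leaving out each library. Scripts were tested on simulated data. All 9 genes were named, and the genes and the pathway and marker lists were chosen with earlier results of these data known. One gene of the pathway list is not reported here and was left out of its counts. Replicates differed by a chi-square per degree of freedom of 3.05 to 411. A count of 0 allows up to 3 counts, and this limit covers counting error only.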

Additional observations from a re-analysis of the deposited data

Results flagged for a closer look

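In the group of 5 NR digits at 7 days, the highest digit of Irf8 lay far from the rest, at 12.9 CPM and 9.55 normalized TPM, with the gap to the next digit over the whole range above Dixon's critical value of 0.71. The highest digit of Irf1 did so at 17.4 normalized TPM, and not on the scale of CPM. Chance flags about 1 in 20 groups, and 9 genes were examined on 2 scales in this group.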

How the results depend on the processing

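In macrophages the counts of called genes were 7, 6 and 7 for M1 against M0, M2 against M0 and M1 against M2, and stayed so under DESeq2, another scaling by size factors, no filter and leaving out each library. Same-numbered macrophage libraries had correlations of deviations from -0.0747 to 0.0664, beside -0.056 to 0.113 for libraries with different numbers. These values show no pairing by number, and shared animals or culture days were not tested. A replicate block also gave 7, 6 and 7. With library totals alone, M1 against M2 gave 4, the cause being the shift of all genes, and Irf9 in M1 against M0 fell to 0.83. In NR digits at 24 hours the count was 1, and 0 with no filter, library totals alone or all digits in 1 fit, there also with the date period added or the 3 digits standing apart left out, and ranged from 0 to 1 on leaving out each digit. Without replicate 1 at 0 hours that 1 gene was Irf5 in place of Socs1. At 12 hours DESeq2 gave 1. Over the NR time points the count was 1, and 0 to 1 on leaving out each digit. It was 0 under no filter, beside 1287 of 18918 genes, and 2 (Irf8 and Irf9) under DESeq2, beside 4436 of 18918 genes. The cause was not tested. No call reversed its direction under any alternative run, and 15 values of a gene in a comparison lost and 8 gained a call. The choice of CPM or normalized TPM for levels changed which digit groups overlapped for Irf7, Irf8 and Irf9.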

Other observations

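For each of the 9 genes, the gene with the most similar pattern over 41 digits was taken by Spearman correlation of normalized TPM among 13691 genes with a mean of at least 1. The points share libraries, depth and time of sampling. The period of the label date, by which Irf5 differed on this scale, was not accounted for. Irf8 was most like Fgr (rho 0.703) and Tyrobp (0.655), both known from myeloid cells. Irf5 was most like Eef1b2 (0.825), a translation elongation factor subunit, and Nmt1 (0.786), Socs1 most like Pprc1 (0.779), Irf7 most like Saraf (0.718) and Stat2 most like Khdrbs1 (0.712). The leading values of Irf1, Irf4, Irf9 and Stat6 were lower, at 0.631 (Adipoq), 0.642 (Gramd2), 0.638 (Rpia) and 0.586 (Ifi30).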
